A study of Homo sapiens with 10 samples.

Results

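Many human genes lie head to head, on opposite strands, with a short shared promoter between their transcription start sites (TSSs), from which RNA polymerase II leaves in both directions. Such divergent promoters are known to be rich in CpG dinucleotides and to serve housekeeping genes of mitochondria, DNA repair, protein synthesis and chromatin. The acetyl marks H3K27ac and H3K18ac, on lysines 27 and 18 of histone H3, are written mainly by the related acetyltransferases CBP and p300 and lie on nucleosomes that flank active promoters and enhancers, so at a divergent promoter a single acetylated stretch can belong to both genes. The pairs described here are protein-coding genes of GENCODE release 44 whose Ensembl canonical TSSs lie head to head, the minus-strand TSS upstream of the plus-strand TSS by at most 1000 bp. There were 984 such pairs, made of 1895 genes, which is 9.46% of the 20033 protein-coding genes on chromosomes 1 to 22, X and Y. Pairs are written with the minus-strand gene first.

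The marks were profiled by ChIP-Seq in the prostate adenocarcinoma cell line C4-2B, which is castration-resistant, and in C4-2BER, an NE-like line derived from it that resists enzalutamide and was raised by continuous exposure to that drug. Each line is a single culture model, and C4-2BER differs from C4-2B in the drug as well as in its history, so drug, resistance and NE-like state cannot be told apart. There were 2 ChIP libraries per mark and line, 8 in all, and 1 input library per line, from cells fixed with disuccinimidyl glutarate and then formaldehyde. The authors merged the replicates before calling peaks, so each of the 4 peak lists is 1 sample with no replicate error, no test between the lines can be made, and the comparisons below describe these pooled libraries. The lists hold no read counts and the depth is unknown.

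Each list gives a peak a fold enrichment, the ratio of its ChIP signal to the local background. The value of a pair is the highest fold enrichment of a peak that overlaps the stretch from 500 bp before the minus-strand TSS to 500 bp after the plus-strand TSS. In broad peaks the fold enrichment is a mean over the whole peak, so it also depends on how far the peak extends. The background is that of each list, and a ratio between lines carries differences in it. The lists held 72971 H3K27ac peaks in C4-2BER against 68034 in C4-2B, and 197948 H3K18ac peaks in C4-2BER against 198451 in C4-2B. The luminal prostate markers KLK3, KLK2, TMPRSS2, FOLH1 and HOXB13 each had both marks within 500 bp of the canonical TSS in both lines. Of the neuroendocrine markers, SYP and ENO2 had H3K27ac there in both lines, and CHGA, INSM1 and NCAM1 had none in either line. Of markers of other cells, PTPRC of blood cells had no peak of either mark in either line, PECAM1 of endothelium had H3K18ac alone in both lines, and COL1A1 of fibroblasts had both marks in both lines, with an H3K27ac fold enrichment of 6.86 in C4-2BER against 10.7 in C4-2B.

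The TSSs of the 984 pairs lay 11 to 1000 bp apart, with a median of 233.5 bp and quartiles of 122 and 402 bp. In 141 pairs at least 1 gene also belonged to another pair, for example through a readthrough transcript, and when overlapping stretches were counted once 912 remained. Some of the sequences between the TSSs are printed here in full, as they are on the plus strand of GRCh38, to show what an intergenic stretch of this size holds. Capitals mark matches on either strand to 7 short motifs, which are the SP1 box GGGCGG, the CCAAT box CCAAT, the ETS core GGAAGT, the NRF1 core GCGCATGC, the TATA box TATAAA, the cyclic AMP response element TGACGTCA and the YY1 core ATGGCGGC. The top pair of lines belongs to the pairs with the highest geometric mean over the 4 lists, the third to a pair with a higher value in C4-2BER, the fourth to a pair of olfactory receptor genes with no peak in any list, and the fifth to a pair of mitochondrial translation genes.

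GLMN/RPAP2, chr1:92298988-92299058: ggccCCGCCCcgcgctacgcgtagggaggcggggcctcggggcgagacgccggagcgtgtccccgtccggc
CCDC122/LACC1, chr13:43879741-43879903: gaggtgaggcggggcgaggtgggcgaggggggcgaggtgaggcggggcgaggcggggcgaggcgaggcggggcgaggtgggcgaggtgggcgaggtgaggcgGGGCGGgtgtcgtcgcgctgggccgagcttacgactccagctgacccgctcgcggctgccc
CNGA1/NIPAL1, chr4:48016682-48016771: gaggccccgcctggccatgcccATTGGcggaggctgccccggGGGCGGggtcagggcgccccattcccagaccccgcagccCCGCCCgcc
OR11A1/OR2H1, chr6:29457072-29457154: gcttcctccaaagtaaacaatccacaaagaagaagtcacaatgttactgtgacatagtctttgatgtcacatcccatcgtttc
SARS2/MRPS12, chr19:38930764-38930943: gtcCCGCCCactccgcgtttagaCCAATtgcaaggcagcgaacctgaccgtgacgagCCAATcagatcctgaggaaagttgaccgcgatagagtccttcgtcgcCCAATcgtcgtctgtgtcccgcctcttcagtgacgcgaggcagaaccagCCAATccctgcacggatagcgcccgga

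No annotated exon lies in these 5 stretches. The GC content was 83.1% between GLMN and RPAP2, 79.1% between CCDC122 and LACC1, 81.1% between CNGA1 and NIPAL1, 60% between SARS2 and MRPS12, and 39.8% between OR11A1 and OR2H1, where none of the 7 motifs matched. The stretch of SARS2, the mitochondrial seryl-tRNA synthetase, and MRPS12, a mitochondrial ribosomal protein, held 4 CCAAT boxes and 1 SP1 box.

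Counted from 250 bp upstream to 50 bp downstream of each canonical TSS, the promoters of pair genes had a median GC content of 65.0%, against 63.3% at the other 18138 protein-coding promoters. The median ratio of observed to expected CpG was 0.888 against 0.757, and 94.1% of pair genes against 64.5% of the others had a ratio above 0.6. The SP1 box matched in 73.6% of pair promoters (95% Wilson interval 71.6 to 75.5%) and in 61.3% of all protein-coding promoters. The CCAAT box matched in 41.4% of pair promoters (39.2 to 43.6%) and 36.1% of all. The ETS core matched in 37.3% of pair promoters (35.2 to 39.5%) and 24.2% of all, the YY1 core in 9.23% (8.01 to 10.6%) and 4.56%, the NRF1 core in 7.28% (6.20 to 8.54%) and 4.27%, and the cyclic AMP response element in 4.43% (3.59 to 5.46%) and 2.69%. The TATA box went the other way, with 3.85% of pair promoters (3.07 to 4.82%) against 9.71% of all. Both strands were searched for each motif, the promoters of a pair overlap each other, and the intervals cover counting error only.

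Nearly all pairs were acetylated in both lines. An H3K27ac peak overlapped the stretch of 955 of 984 pairs in C4-2BER, against 956 in C4-2B. An H3K18ac peak did so at 970 and 975 pairs. In all, 950 pairs, or 96.5% (95.2 to 97.5%), had a peak in each of the 4 lists. A single H3K27ac peak ran across both TSSs in 945 pairs of C4-2BER, or 96.0% (94.6 to 97.1%), and in 935 pairs of C4-2B (93.5 to 96.2%). For H3K18ac this was so in 954 pairs of C4-2BER and 947 of C4-2B. Separate peaks over each TSS of a pair were found in 0 of 984 pairs in each list, which allows a share of up to 0.389% by the Wilson interval. Broad peaks bridge short dips of signal, so a single peak does not show that acetylation was even between the TSSs.

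**Figure D1:**
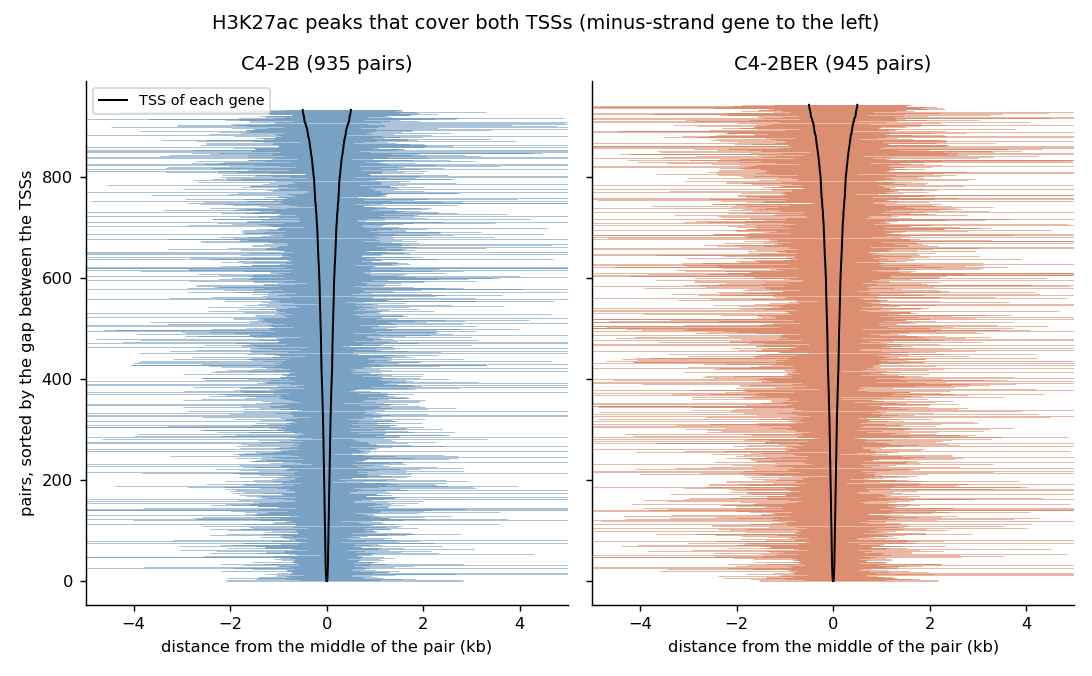
H3K27ac peaks that cover both TSSs of a pair, in C4-2B (left, 935 pairs) and C4-2BER (right, 945 pairs). Each horizontal line is the peak of 1 pair, the x axis is the distance from the middle of the pair in kb with the minus-strand gene to the left, pairs are sorted by gap along the y axis, and the black curves are the TSSs; peaks past 5 kb are drawn to the edge. The peaks reach well beyond both TSSs on either side, and the coloured band is wider in C4-2BER.

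These peaks were much longer than the gaps they spanned. The median width of an H3K27ac peak across both TSSs was 3403 bp in C4-2BER against 2857 bp in C4-2B, and that of an H3K18ac peak 2407 and 2325 bp. Among the 933 pairs with such an H3K27ac peak in both lines, the peak was wider in C4-2BER in 733, or 78.6%, with a median width ratio of 1.08. For H3K18ac it was wider in C4-2BER in 541 of 939, or 57.6%. Beyond the TSSs the peaks reached about as far into the plus-strand gene as into the minus-strand gene, since the H3K27ac arm on the plus side was the longer in 458 of 945 pairs of C4-2BER (48.5%) and in 474 of 935 pairs of C4-2B (50.7%). Single pairs were less even. The median longer H3K27ac arm was 1957 bp and the median shorter arm 1033 bp in C4-2BER, and the longer arm was at least 3 times the shorter in 204 pairs (21.6%). The longer arm lay on the same gene's side in both lines in 753 of 933 pairs for H3K27ac (80.7%) and in 778 of 939 for H3K18ac (82.9%).

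The distance between the TSSs made little difference to this up to 1000 bp. In C4-2BER a single H3K27ac peak covered both TSSs in 178 of 188 pairs with a gap of up to 100 bp (94.7%), in 222 of 232 with a gap above 100 and up to 200 bp (95.7%), in 198 of 204 up to 300 bp (97.1%), in 184 of 186 up to 500 bp (98.9%) and in 163 of 174 up to 1000 bp (93.7%). In C4-2B the shares ranged from 92.0% in the widest class to 98.9% between 300 and 500 bp. A peak over only 1 of the TSSs was found in 9 pairs of C4-2BER and 19 of C4-2B, and 6 of the 9 and 10 of the 19 had gaps above 500 bp. Near the limit of the rule, 26 of 29 pairs with gaps of 912 to 1000 bp had a single H3K27ac peak over both TSSs in each line, and so did 17 of 18 pairs just outside it, with gaps of 1011 to 1083 bp.

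Of the 984 pairs, 6 had H3K27ac over the same single TSS in both lines. C1orf232/ZNF593 (gap 945 bp) had its peak over the ZNF593 side, at 11.1 in C4-2BER against 17.5 in C4-2B, while H3K18ac covered both TSSs. FAM72A/SRGAP2 and FAM72B/SRGAP2C, copies of a human-specific duplication around the neuronal gene SRGAP2, had it over the SRGAP2 side. The heat shock pair HSPA1L/HSPA1A (gap 260 bp) had weak H3K27ac of 2.47 and 3.13 over the testis-expressed HSPA1L. Its H3K18ac covered both TSSs in C4-2B, at 2.84, and that of HSPA1L alone in C4-2BER, at 2.43. A missing peak over HSPA1A does not show a missing mark. OBSL1/INHA and TSPAN19/LRRIQ1 were the others, and the last of these was named after its values were seen. The sequence of FAM72A/SRGAP2 and FAM72B/SRGAP2C has other copies in the genome with at least 95% identity over at least 80% of the stretch, so reads there cannot be placed with certainty.

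Pair promoters carried H3K27ac more often than other protein-coding promoters. The canonical TSS itself was under an H3K27ac peak in 1827 of 1895 pair genes in C4-2BER, or 96.4% (95.5 to 97.2%), against 11395 of 18138 others, or 62.8% (62.1 to 63.5%). In C4-2B the shares were 95.9% and 62.0%. Under H3K18ac they were 97.5% and 73.5% in C4-2BER and 97.4% and 76.9% in C4-2B. Genes with no transcript start of another gene on the other strand within 1000 bp had H3K27ac at 57.1% of 14200 TSSs in C4-2BER. GC content moved with coverage among the other promoters. The shares were therefore also set side by side within 10 equal groups of all protein-coding promoters by GC content. The ratio of observed to expected CpG, in which pair and other promoters also differed, was not matched. With 44.6 to 51.7% GC, 94.8% of 77 pair TSSs (87.4 to 98.0%) were under H3K27ac in C4-2BER against 31.5% of 1906 others. With 58.7 to 61.2% GC the shares were 95.9% and 70.0%, and with 72.5 to 86.9% GC 97.3% of 148 pair TSSs against 89.3%. The group of lowest GC content held only 10 pair genes, of which 3 (10.8 to 60.3%) were covered, against 5.14% of 1985 others.

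**Figure D2:**
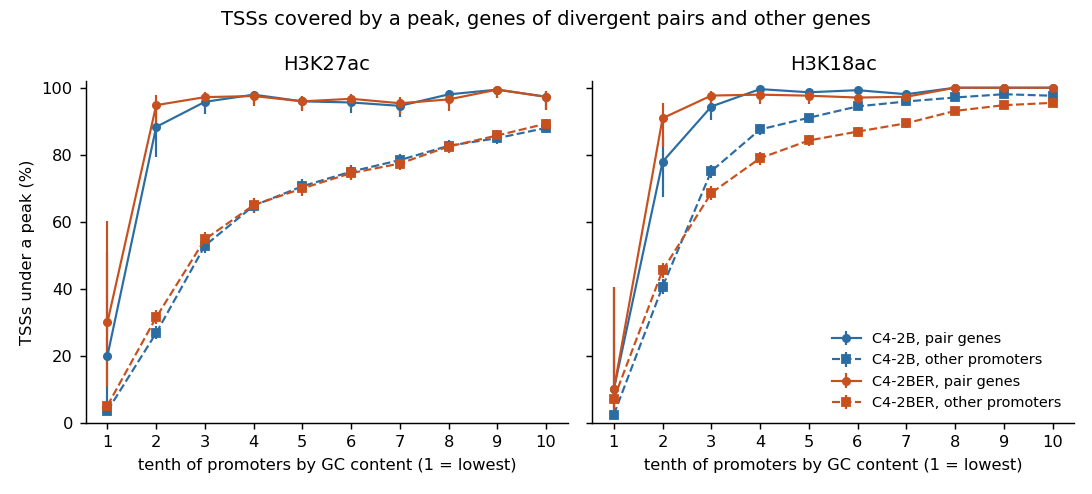
Share of canonical TSSs under an H3K27ac (left) or H3K18ac (right) peak in 10 groups of protein-coding promoters by GC content (x axis, 1 is the lowest), for pair genes (circles, solid lines) and other genes (squares, dashed lines) in each line; bars are 95% Wilson intervals. From the third group on, pair genes lie between 94.4% and 100% in every panel and line, while H3K27ac at the other genes climbs from 54.7% to 89.3% in C4-2BER and from 52.9% to 88.0% in C4-2B.

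Where an H3K27ac peak was present, the median fold enrichment of pairs was 13.9 in C4-2BER (quartiles 11.6 and 16.8) and 20.6 in C4-2B (16.3 and 25.3), against 12.2 and 17.8 at other promoters with a peak. For H3K18ac the medians were 6.16 and 8.12 at pairs and 5.55 and 6.86 at other promoters. The 984 stretches are longer than the windows of single promoters and take the highest of more peaks, but the median over pair genes with windows of the same size was 13.8 and 20.6 for H3K27ac. The highest 10% of all H3K27ac peaks by fold enrichment included a peak at 647 pairs of C4-2B (65.8%) and 656 of C4-2BER (66.7%), where the share was 32.2% and 32.8% of other promoters. Counted over those with a peak, the shares were 67.7% and 68.7% at pairs against 49.5% and 50.1% at other promoters.

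The strongest pairs were taken by the geometric mean of their 4 values. GLMN/RPAP2, which encodes glomulin of the cullin ubiquitin ligases and a phosphatase of RNA polymerase II, had an H3K27ac fold enrichment of 27.2 in C4-2BER against 46.9 in C4-2B, and for H3K18ac 12.6 and 17.3. CCDC122/LACC1 had 29.5 and 45.8 for H3K27ac and 12.1 and 17.0 for H3K18ac. THOC7/ATXN7, a subunit of the THO complex of mRNA export and a subunit of the SAGA coactivator, had 26.4 and 41.6 and then 12.3 and 16.8. In each of these stretches the value was lower in C4-2BER for both marks.

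Of 12 pairs known from textbooks, 11 had H3K27ac in both lines. HSPD1/HSPE1, which encode the mitochondrial chaperonin HSP60 and its co-chaperonin, had an H3K27ac fold enrichment of 19.5 in C4-2BER against 32.8 in C4-2B. TAP1/PSMB9, the peptide transporter and immunoproteasome subunit of antigen presentation, had 19.6 and 27.7. PPAT/PAICS, enzymes of purine synthesis, had 16.2 and 26.1, and PRKDC/MCM4, a kinase of DNA double-strand break repair and a subunit of the replicative helicase, had 15.1 and 26.9. NPAT/ATM, the histone gene coactivator and the DNA damage kinase, had 12.5 and 15.5, ZAR1L/BRCA2 had 14.2 and 15.3, SARS2/MRPS12 had 12.6 and 19.2 and SURF1/SURF2 had 8.21 and 13.4. PDCD10/SERPINI1, of which SERPINI1 encodes the neuronal protease inhibitor neuroserpin, had 11.6 and 23.9, a log2 ratio of -1.04, the one textbook pair past a ratio of 2. The values were lower in C4-2BER in each of these pairs, and they were closest in ZAR1L/BRCA2, with a log2 ratio of -0.10 for H3K27ac.

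The collagen pairs had low H3K27ac. COL4A1/COL4A2, the type IV collagen chains of all basement membranes, which share 127 bp, had no H3K27ac peak in either line and weak H3K18ac, 3.18 in C4-2BER against 3.10 in C4-2B. COL4A4/COL4A3, the chains of specialised basement membranes such as that of the kidney glomerulus, had H3K27ac of 7.04 and 8.18, but its H3K18ac of 6.02 and 8.94 was near or above the medians of all pairs. COL4A5/COL4A6, with TSSs 1416 bp apart, fell outside the rule. The stretch between COL4A1 and COL4A2 that is free of annotated exons holds a CCAAT box and an SP1 box and is 78.0% GC. It is shown with that of SATL1/ZNF711, which had H3K27ac in C4-2BER only, and of SAFB2/SAFB and TOP3A/SMCR8, which had far lower values in C4-2BER. These 4 were picked after their values were seen, and each is the longest run between the TSSs with no annotated exon.

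COL4A1/COL4A2, chr13:110307158-110307257: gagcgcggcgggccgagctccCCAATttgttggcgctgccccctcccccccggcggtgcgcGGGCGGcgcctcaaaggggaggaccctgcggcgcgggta
SATL1/ZNF711, chrX:85243912-85243990: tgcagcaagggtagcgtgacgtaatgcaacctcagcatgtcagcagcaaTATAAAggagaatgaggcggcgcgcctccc
SAFB2/SAFB, chr19:5622777-5623034: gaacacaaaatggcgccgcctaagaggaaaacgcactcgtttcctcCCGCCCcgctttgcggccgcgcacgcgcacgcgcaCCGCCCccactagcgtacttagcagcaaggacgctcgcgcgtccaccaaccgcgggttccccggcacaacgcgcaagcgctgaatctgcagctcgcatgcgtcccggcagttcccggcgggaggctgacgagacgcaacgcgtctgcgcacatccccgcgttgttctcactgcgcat
TOP3A/SMCR8, chr17:18315008-18315292: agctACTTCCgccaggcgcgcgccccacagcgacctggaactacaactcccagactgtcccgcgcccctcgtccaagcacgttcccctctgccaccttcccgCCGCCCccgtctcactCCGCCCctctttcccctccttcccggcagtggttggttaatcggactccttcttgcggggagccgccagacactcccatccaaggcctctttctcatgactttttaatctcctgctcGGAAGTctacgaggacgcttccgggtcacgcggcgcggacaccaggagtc

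Most pairs had lower values in C4-2BER than in C4-2B, as did most other promoters. Over the 952 pairs with H3K27ac in both lines the median log2 ratio of C4-2BER to C4-2B was -0.56 (quartiles -0.75 and -0.36), and 52 pairs (5.46%) were higher in C4-2BER. Over all 13188 protein-coding promoters with H3K27ac in both lines the median was -0.51, and 11.6% were higher. For H3K18ac the median was -0.44 over 969 pairs (quartiles -0.60 and -0.21) and -0.34 over all promoters. A robust line fitted through the log2 ratios of all regions shared by both lists takes out most of this shift, after which the medians were -0.12 for H3K27ac and -0.20 for H3K18ac at pairs, and -0.11 and -0.14 at all promoters. For H3K27ac, 300 pairs (31.5%) were then higher in C4-2BER, against 36.4% of all promoters. The spread of the H3K27ac ratios was narrower at pairs, with an interquartile range of 0.40 against 0.51 at the other promoters.

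**Figure D3:**
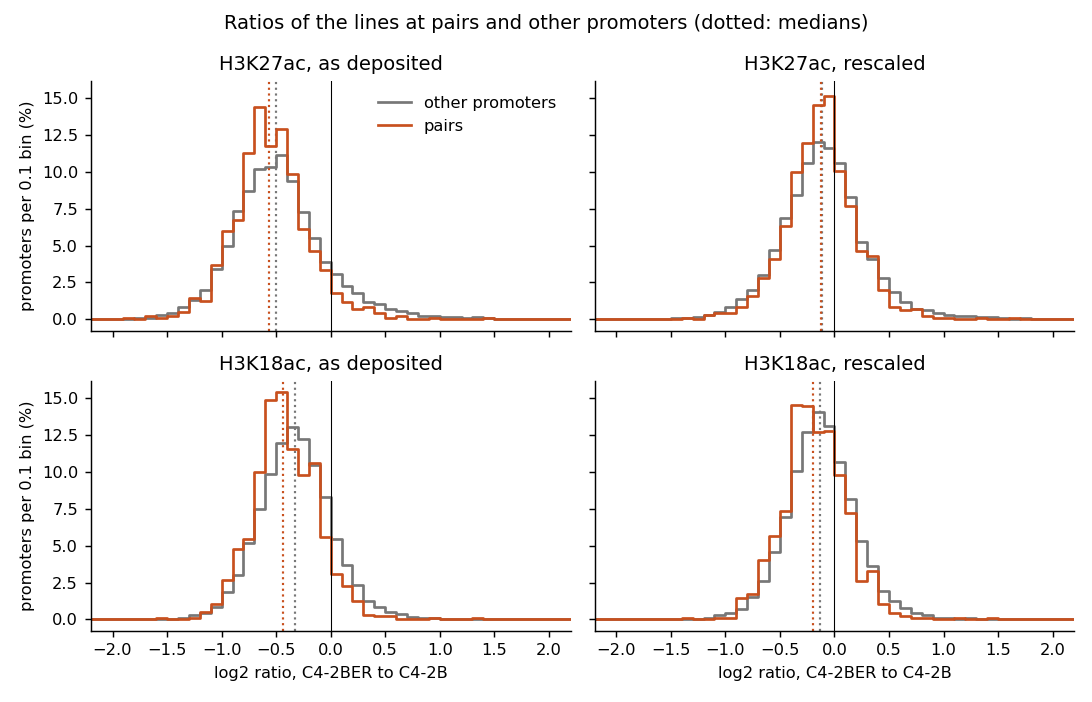
Log2 ratio of fold enrichment, C4-2BER to C4-2B, at pairs (orange) and other protein-coding promoters (grey) with a peak in both lines, as the percent of promoters per bin of 0.1, for H3K27ac (upper row) and H3K18ac (lower row), as deposited (left) and after the robust line was taken out (right). Dotted lines are the medians, which at pairs move from -0.56 to -0.12 for H3K27ac and from -0.44 to -0.20 for H3K18ac.

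Few pairs gained either mark. A pair was called increased where its ratio of C4-2BER to C4-2B was 2 or more or where C4-2BER alone had a peak, and decreased where the reverse held. Of 959 pairs with H3K27ac in at least 1 line, 4 were increased (0.417%) and 76 decreased (7.92%), where the background over 14143 protein-coding promoters was 4.45% increased and 11.1% decreased. After rescaling by the robust line 6 pairs were increased and 12 decreased, against a background of 4.89% and 4.33%. When ratios were centred by GC content the counts were 8 and 7, with no background counted for that centring. Of 976 pairs with H3K18ac, 2 were increased (0.205%) and 23 decreased (2.36%), where the background was 2.41% and 7.49%, and after rescaling 3 and 8, against 2.53% and 6.23%. A peak in 1 line only was part of this difference, since 3 pairs had H3K27ac only in C4-2BER and 4 only in C4-2B (0.313% and 0.417% of those with a peak), against 3.67% and 3.08% of all promoters. The decreased count as deposited rests on the scaling of the lists. It also moved with peak width. Among pairs with a single H3K27ac peak over both TSSs in both lines, 34 of the 169 whose peak was more than 1.5 times wider in C4-2BER were decreased (20.1%), against 35 of the 737 with widths within 1.5 times of each other (4.75%), and the median log2 ratios were -0.70 and -0.54. How far width sets the ratios was not tested.

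**Figure D4:**
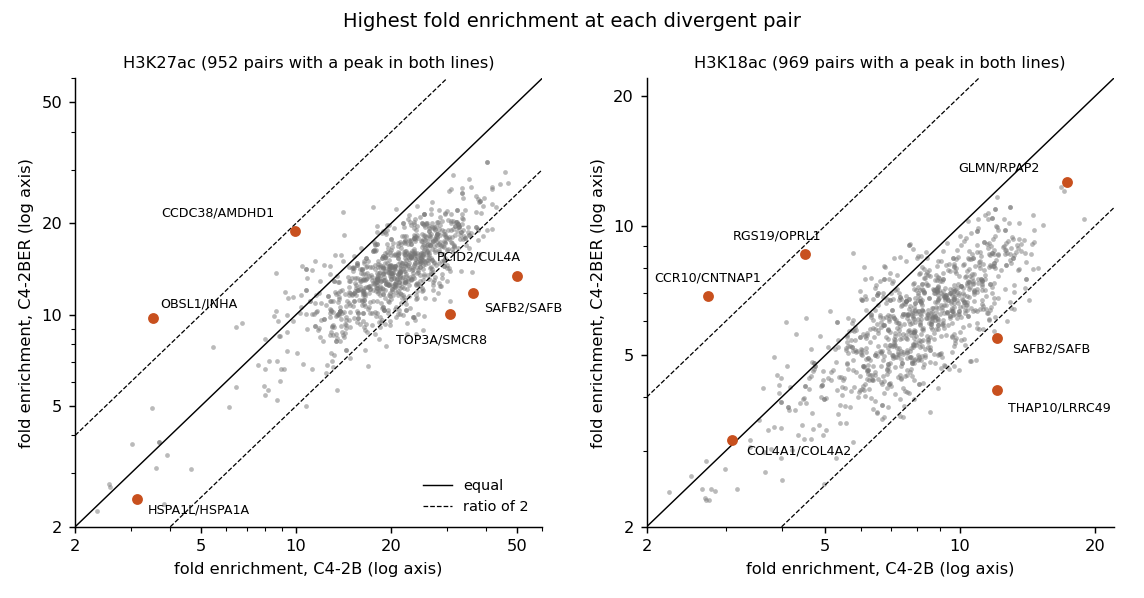
Highest fold enrichment at each pair in C4-2B (x axis) and C4-2BER (y axis), both on log axes, for H3K27ac (left, 952 pairs) and H3K18ac (right, 969 pairs); the solid line is equality, dashed lines a ratio of 2, and labelled points are pairs named in the text. The cloud lies below equality in both panels, and OBSL1/INHA for H3K27ac and CCR10/CNTNAP1 for H3K18ac lie above the upper dashed line.

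The pairs with H3K27ac in C4-2BER only were weak except for 1. SATL1/ZNF711 on the X chromosome, of which ZNF711 encodes a neural zinc finger transcription factor, had an H3K27ac fold enrichment of 5.55 over the ZNF711 side in C4-2BER and no peak in C4-2B, and its H3K18ac was 5.62 in C4-2BER against 4.30 in C4-2B. SGCE/PEG10, an imprinted pair expressed from the paternal allele, had H3K27ac of 2.49 in C4-2BER and no peak in C4-2B, with H3K18ac of 3.06 and 3.39. ENSG00000285868/NIPAL4 had 2.51, with H3K18ac of 3.37 and 4.70. The 4 pairs with H3K27ac in C4-2B only were MMRN2/SNCG at 4.57, LYPD4/DMRTC2 at 4.40, DMGDH/BHMT2 at 2.95 and CCR10/CNTNAP1 at 2.28, and each kept H3K18ac in both lines. SNCG encodes gamma-synuclein, and its peak in C4-2B covered the SNCG side alone. The pairs of this paragraph were named after their values were seen.

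At CCR10/CNTNAP1 the marks differed in direction, with H3K27ac counted by its presence. CNTNAP1, a neuronal adhesion protein of the axon's paranodal junction, and CCR10, a chemokine receptor, had an H3K18ac fold enrichment of 6.89 in C4-2BER against 2.75 in C4-2B, a log2 ratio of 1.33, while the weak H3K27ac peak of 2.28 was in C4-2B alone. The H3K18ac peak of C4-2BER was 9407 bp wide, with 8543 bp on the CCR10 side and 175 bp on the CNTNAP1 side. That of C4-2B was 4433 bp wide, with 172 bp on the CCR10 side and 3572 bp on the CNTNAP1 side. The 2 folds are thus means over unlike regions. NFKBID/HCST had H3K18ac of 7.56 in C4-2BER only, from a peak that covered neither TSS. H3K18ac was present in C4-2B only in 6 pairs, all at 3.35 or below, namely FAM229A/TSSK3, DCST2/DCST1, ABCG5/ABCG8, TRIM50/FKBP6, C11orf21/TSPAN32 and TEX28/TKTL1. No pair had both marks in 1 line and neither in the other, and no pair had ratios of at least 2 in opposite directions in the marks.

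The largest rises, by the mean of both marks' log2 ratios, were led by OBSL1/INHA. OBSL1 encodes a cytoskeletal adaptor and INHA the alpha subunit of inhibin, a hormone of the gonads. Its H3K27ac was 9.72 in C4-2BER against 3.52 in C4-2B, a log2 ratio of 1.47, and lay over the OBSL1 side without reaching the INHA TSS 771 bp away, while H3K18ac covered both TSSs at 6.87 and 6.12. CCDC38/AMDHD1, of which AMDHD1 is an enzyme of histidine breakdown, had H3K27ac of 18.9 in C4-2BER against 9.90 in C4-2B and H3K18ac of 8.52 and 8.06. CNGA1/NIPAL1, a cyclic nucleotide-gated channel of rods and a magnesium transporter, had 21.7 and 14.0 and then 8.52 and 8.18. RGS19/OPRL1, a regulator of G protein signalling and the nociceptin receptor, had the larger difference in H3K18ac, 8.60 against 4.51, where the peak was 3984 bp wide in C4-2BER but 57507 bp in C4-2B, and H3K27ac of 10.0 against 11.4. OBSL1/INHA alone among these pairs passed a ratio of 2 as deposited. After rescaling, the H3K27ac log2 ratios were 1.64 for OBSL1/INHA, 1.31 for CCDC38/AMDHD1 and 1.07 for CNGA1/NIPAL1.

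Of the 5 largest falls by the same measure, each was decreased in H3K27ac as deposited and 3 also in H3K18ac, namely THAP10/LRRC49, SAFB2/SAFB and SLC7A6OS/PRMT7. THAP10/LRRC49 had an H3K27ac fold enrichment of 9.89 in C4-2BER against 25.3 in C4-2B, and for H3K18ac 4.15 and 12.1, log2 ratios of -1.35 and -1.54. SAFB2/SAFB, paralogous scaffold attachment factors that bind DNA and RNA, had 11.8 and 36.4 and then 5.50 and 12.1. SLC7A6OS/PRMT7, of which PRMT7 is an arginine methyltransferase, had 8.61 and 22.5 and then 4.86 and 10.6. PCID2/CUL4A, a factor of mRNA export and the scaffold of a cullin ubiquitin ligase, had the lowest H3K27ac ratio of all pairs, 13.4 against 49.8 (log2 ratio -1.90), with H3K18ac of 10.1 and 15.3. TOP3A/SMCR8, a DNA topoisomerase and a regulator of autophagy, had 10.0 and 30.8 and then 5.27 and 9.68. Rescaled H3K27ac log2 ratios were -1.36 for PCID2/CUL4A, -1.18 for TOP3A/SMCR8, -1.15 for SAFB2/SAFB and -0.94 for THAP10/LRRC49. The H3K27ac peaks of the lines differed most in extent at 3 of these pairs. Widths were 14757 bp in C4-2BER against 2621 bp in C4-2B at PCID2/CUL4A, 12790 and 4567 bp at SAFB2/SAFB, and 9909 and 2524 bp at TOP3A/SMCR8. At SLC7A6OS/PRMT7 they were 6070 and 4163 bp. H3K18ac widths at SAFB2/SAFB were 12455 and 3289 bp. At THAP10/LRRC49 the H3K18ac peak covered both TSSs in C4-2BER but only that of THAP10 in C4-2B. The folds in these cases are means over unlike regions. In 12 pairs both marks were decreased as deposited, and besides 3 of these 5 they included DDX24/IFI27L1 at -1.17 and -1.06 and PI4KA/SNAP29 at -1.03 and -1.09, named after their values were seen. The share of all promoters decreased in both marks was not counted. In each mark alone the decreased share at pairs was below the background, 7.92% against 11.1% for H3K27ac and 2.36% against 7.49% for H3K18ac.

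**Figure D5:**
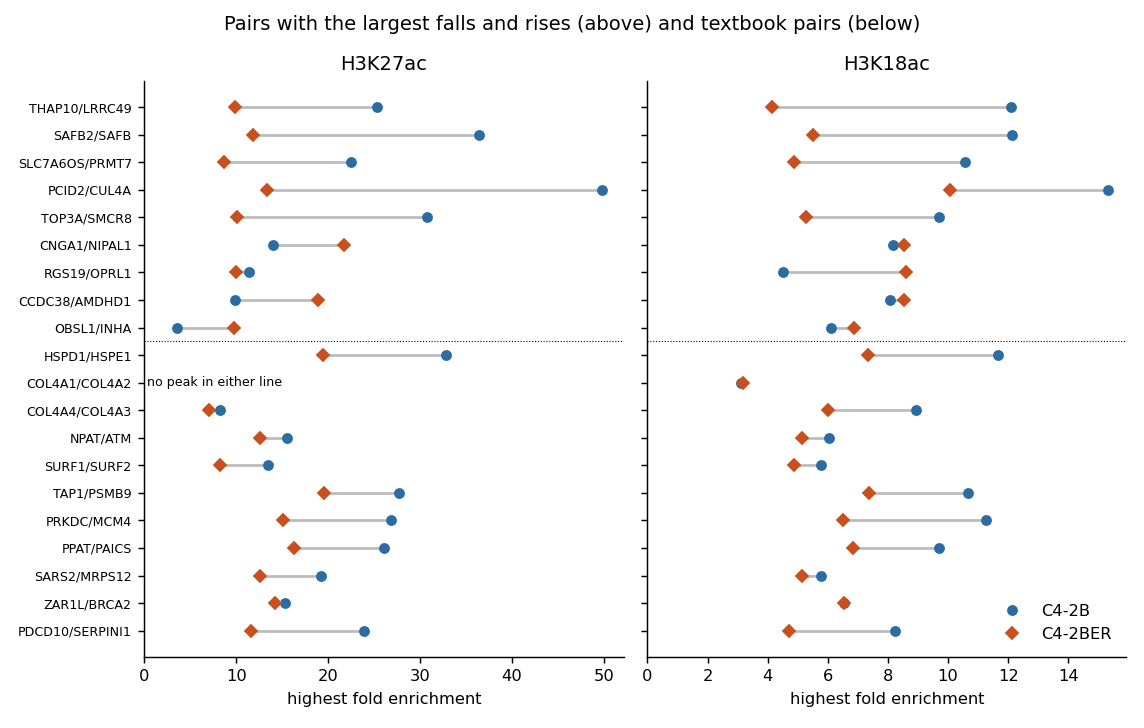
Highest fold enrichment (x axis) of H3K27ac (left) and H3K18ac (right) in C4-2B (blue circles) and C4-2BER (orange diamonds) at the pairs with the largest falls and rises, above the dotted line, and at textbook pairs, below it. The falls open the widest gaps, such as 49.8 against 13.4 at PCID2/CUL4A, and COL4A1/COL4A2 has no H3K27ac peak in either line.

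Gene groups were spread unevenly over the pairs. Of 74 replication-dependent histone genes, 26 (35.1%) were in pairs, as were 58 of 189 genes of the mitochondrial ribosome and respiratory chain (30.7%), 11 of 34 of mitochondrial import and chaperones (32.4%), 11 of 34 RNA polymerase subunits (32.4%), 40 of 144 of DNA repair and replication (27.8%), 8 of 34 aminoacyl-tRNA synthetases (23.5%), 9 of 50 proteasome genes (18%) and 14 of 89 cytosolic ribosomal proteins (15.7%), against 9.46% of all protein-coding genes. Zinc finger genes, with 41 of 544 (7.54%), and antigen processing and interferon genes, with 7 of 84 (8.33%), were near that share. Of 350 genes listed as neuronal channel, receptor and synaptic genes, 3 (0.857%) were in pairs, and the pairs were SCN11A/WDR48, TRPM5/KCNQ1 and COX11/STXBP4.

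The 58 pairs of the mitochondrial ribosome and respiratory chain had both marks in both lines. Their median H3K27ac log2 ratio was -0.58, against -0.51 over all promoters with the mark in both lines, with 0 increased and 3 decreased, where the background share was 4.45% increased and 11.1% decreased. Counts this small in the lists below were not tested against that share. Pairs that share a gene are counted separately in these lists though they hold the same peak. Examples are the pairs of MRPL32 and MRPL47 here, and those of RPS28 and H2BC7 below. The extremes were MRPL14/TMEM63B, a subunit of the mitochondrial ribosome, with 8.88 in C4-2BER against 25.2 in C4-2B, KBTBD4/NDUFS3, a subunit of complex I, with 11.3 and 25.6, and ATP5PD/KCTD2, a subunit of ATP synthase, with 17.7 and 37.6. Among 12 pairs of mitochondrial import and chaperones the median was -0.69, with 1 decreased, ARFIP2/TIMM10B, at 10.4 and 22.2. Among 41 pairs of DNA repair and replication the median was -0.46, and 2 were decreased, POLE/PXMP2, of the leading-strand DNA polymerase, with 16.6 and 35.3, and RAD1/BRIX1, of the checkpoint clamp, with 10.0 and 21.3. Among 10 proteasome pairs the median was -0.63, with PSMA7/SS18L1 at 13.8 and 36.0 and SIRT3/PSMD13 at 12.4 and 28.6 the 2 decreased.

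As deposited, histone and ribosomal protein pairs had medians nearer to 0 than that of all pairs, and this difference was not tested. Of the 14 pairs with a replication-dependent histone gene, 12 had H3K27ac in both lines, with a median log2 ratio of -0.31 and a range of -0.53 to 0.00. None passed a ratio of 2, and the rescaled median was 0.11, where that of all pairs was -0.12. H2BC13/H2AC13 had 18.8 in both lines, and H2AC7/H2BC7 had 17.8 and 19.9. H2AC1/H2BC1, the testis-specific histone pair, and H3C7/H2BC9 had no H3K27ac peak in either line and H3K18ac between 2.25 and 2.63. The histone genes share near-identical coding sequence, so reads within them are harder to place. The 15 pairs with a cytosolic ribosomal protein had a median of -0.34, with 0 past a ratio of 2 and NKIRAS1/RPL15 the lowest at 15.2 and 29.4. The 7 pairs with an aminoacyl-tRNA synthetase had -0.61 and the 11 with an RNA polymerase subunit -0.54, with 0 past a ratio of 2 in both groups.

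Among 34 pairs with a zinc finger gene the median H3K27ac log2 ratio was -0.60. SATL1/ZNF711, above, was the increased pair, and ZSCAN29/TUBGCP4, at 15.9 and 38.0, and ZNF319/USB1, at 14.6 and 30.1, were decreased. The 3 pairs with a gene from the list of neuronal channel, receptor and synaptic genes had no call in either mark. TRPM5/KCNQ1, a taste cell channel and a potassium channel, had H3K27ac of 6.83 in C4-2BER against 7.59 in C4-2B and H3K18ac of 6.34 and 5.12. SCN11A/WDR48 had 13.0 and 22.1 for H3K27ac. Of 5 pairs of antigen processing and interferon response, DDX24/IFI27L1 was decreased in both marks, while IRF3/BCL2L12, of the interferon-inducing transcription factor, had 10.1 and 10.3 and PATL2/B2M, of the light chain of MHC class I, had 14.3 and 18.8. Over the 12 lists, DDX24/IFI27L1 was the 1 pair with a call in H3K18ac.

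Nearly every pair had both marks. Of pairs with H3K18ac, 98.2% also had H3K27ac in C4-2BER against 97.9% in C4-2B, against 83.5% and 79.7% of other promoters with H3K18ac. With or without H3K18ac, H3K27ac was at 97.1% and 97.2% of all pairs, and at 65.4% and 65.0% of all other promoters. The shares at pairs could thus hardly be lower, and they do not show a closer link between the marks there. H3K18ac without H3K27ac was found at 17 pairs in C4-2BER against 20 in C4-2B, and H3K27ac without H3K18ac at FAM72A/SRGAP2 in both lines and at FAM229A/TSSK3 in C4-2BER. The 25 pairs with no H3K27ac in either line included both pairs of the dual oxidases and their maturation factors, DUOX2/DUOXA2 and DUOXA1/DUOX1, with H3K18ac between 2.45 and 3.41, the sterol transporters ABCG5/ABCG8, TMEM176B/TMEM176A, the channel pair TRPC5/RTL4, and the meiotic cohesin pair SMC1B/RIBC2, all with H3K18ac of at most 3.41 where present. These were named after their values were seen.

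Of the 984 pairs, 7 had no peak in any list. OR11A1/OR2H1 encodes olfactory receptors, PLCZ1/CAPZA3 proteins of sperm, and ENSG00000267618/FNDC8 a testis-expressed protein. The others, BOLA2/SLX1B, BOLA2-SMG1P6/SLX1B and BOLA2B/SLX1A on chromosome 16 and SRGAP2B/FAM72D on chromosome 1, lie in recent segmental duplications with another copy in the genome, where alignments of low mapping quality were removed by the authors, so a missing peak there does not show a missing mark.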

How the data were processed

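H3K27ac and H3K18ac ChIP-Seq of C4-2B and C4-2BER cells was analysed from the 4 deposited peak lists, 1 per mark and line. The authors had aligned the reads to GRCh38 with Bowtie2 (version 2.2.3 in the submitters' processing notes, which differs from the study's methods), removed blacklisted regions, duplicates and alignments of low mapping quality, merged the replicates and called broad peaks with macs2, whose options are not given in the sources used here. The deposited values are a fold enrichment, which is a ratio to the local background, a −log10 p-value and q-value, and a score, which was not used. Depth is unknown, and an absent peak can be a mark below the caller's threshold.

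Canonical TSSs of protein-coding genes were taken from GENCODE release 44, which is of the build of the lists; 0 peaks ran past a chromosome end. Peaks of the autosomes and the X and Y chromosomes entered unchanged, and a pair on the mitochondrial genome was left out. Promoters compared with the pairs were 500 bp on each side of the canonical TSS. Other copies of a stretch were sought with blastn 2.17.0 at 95% identity over 80% of its length. The robust line was a Huber regression of log2 ratio on mean log2 fold enrichment over 45431 regions shared by the H3K27ac lists and 125361 shared by the H3K18ac lists. No test between lines was made. Wilson intervals of 95% cover counting error only. The functions were tested on simulated data. Python 3.11.15, pandas 2.3.3, statsmodels 0.14.6, pysam 0.24.0 and samtools 1.23.1 were used.

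The members, gene lists and alternatives were chosen with earlier results of these data known. Named pairs were those with the 5 largest rises and the 5 largest falls by the mean log2 ratio of both marks, the 5 highest geometric means of the 4 values, up to 5 with H3K27ac over the same single TSS in both lines (largest gaps), pairs with both marks in 1 line only (0 found) or opposite changes (0 found), up to 5 of smallest gap with no peak, 14 textbook pairs of which 12 were members, and up to 4 examples of each of 12 gene lists by size of the H3K27ac ratio; others are marked in the text as named after their values were seen. Sequences were read from the GRCh38 reference. Some genes, pairs and sequences that these rules or the marker lists select are not reported here. The input, ATAC-seq, RNA-seq and read-level data were not analysed here.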

Additional observations from a re-analysis of the deposited data

How the results depend on the processing

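No paired analysis was possible because the replicates were merged in the deposited lists, and for the same reason no replicate could be left out. Of 126 recomputed summaries, 90 stayed within the interval of the reported value or within 1.5 times the reported count, and no median changed sign. With only peaks of a fold enrichment of at least 4, pairs with the mark in both lines were 95.4% for H3K27ac and 90.2% for H3K18ac, pairs with a single H3K18ac peak over both TSSs in both lines 88.7%, H3K18ac calls 8 increased and 63 decreased, pairs with H3K18ac that held H3K27ac 99.6% (C4-2BER) and 99.1% (C4-2B), and the excess of pair TSSs under H3K27ac over other promoters 37.5 and 37.3 percentage points, against 33.6 and 33.9 as reported. With peaks at a −log10 q-value of 5 or more these were 96.1% for H3K18ac in both lines, 93.9% with a single peak, 4 increased, 99.3% and 99.2%, and 35.8 and 36.7 points. With promoters that have no opposite start nearby as the comparison, the excess was 39.3 and 39.7 points. H3K18ac increases numbered 4 with no extension of the stretch and 1 with TSSs at most 500 bp apart. Without the 11 pairs that have another copy, an alternative chosen after seeing the data, 99.1% had H3K18ac in both lines. The increased and decreased calls of this paragraph were not counted over all promoters.

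Rescaled by the robust line, the median log2 ratios were -0.12 and -0.20 for H3K27ac and H3K18ac, with 12 and 8 decreased. Centred by GC content in 20 groups, they were -0.055 and -0.087, with H3K27ac 8 increased and 7 decreased and H3K18ac 7 decreased. A ratio of 1.5 gave 7 increased and 454 decreased for H3K27ac and 267 decreased for H3K18ac. Calls over all promoters were not counted at this ratio or with GC centring, so these counts have no background. The median log2 ratios over all promoters were themselves -0.51 for H3K27ac and -0.34 for H3K18ac as deposited. By presence of a peak alone, 4 were decreased for H3K27ac, and 1 increased and 6 decreased for H3K18ac. The lists alone do not tell which scaling is right. The log2 ratios of the 10 pairs with the largest changes kept their direction under each value, window and scaling choice, except H3K27ac at RGS19/OPRL1, which was 0.14 rescaled and 0.35 centred by GC content.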

Other observations

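The change between the lines differed with sequence composition within the pairs, as it did at other promoters. In the 246 pairs of lowest GC content (35.8 to 57.5%), the median H3K27ac fold enrichment was 12.8 (C4-2BER) against 16.4 (C4-2B), with a median log2 ratio of -0.45. In the 246 of highest GC content (66.2 to 79.5%) it was 15.0 and 23.6, with a median of -0.62, and 25 pairs were decreased against 13. The background over all protein-coding promoters was 11.1% decreased as deposited. It was not counted by GC content, so these counts show no excess at pairs of high GC content. After rescaling, the medians were -0.03 and -0.14. Whether this lies in the cells or in the libraries was not tested.

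Low GC content was also where TSS coverage at pairs was lowest. Among the 77 pair genes with 44.6 to 51.7% GC, 90.9% (82.4 to 95.5%) had the TSS under H3K18ac in C4-2BER and 77.9% (67.5 to 85.7%) in C4-2B, and under H3K27ac the shares were 94.8% and 88.3%. The same genes are counted in both lines, so these intervals do not measure the difference between the lines, which was not tested. Of the other promoters in this group, 45.5% (43.3 to 47.7%) and 40.7% (38.5 to 42.9%) had H3K18ac. In the 3 groups of highest GC content every pair gene had its TSS under H3K18ac in both lines.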
